A study of Mus musculus with 11 samples.

Results

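NKG2 receptors, their partner CD94 and the adaptor proteins that carry their signals were followed in CD8+ Tregs through 10 genes: Klrk1, Klrc1, Klrc2, Klrc3, Klrd1, Hcst, Tyrobp, Klre1, Klri1 and Klri2. They were picked by gene name from the 54532 genes of the count table, and all 10 passed the filter on low counts that left 13129 genes for testing. The libraries came from splenic CD8+CD44+Ly49+CD122+ T cells, sorted by FACS from wild-type mice that carried no transgene or deletion by their labels. There were 3 libraries from young males, 3 from young females, 2 from middle-aged males and 3 from middle-aged females. Young mice were 2 to 3 months old, and middle-aged mice, which the labels call old, were 10 to 12 months old. Each library is given as a biologically independent replicate, but the labels do not say how many mice stand behind it. The question of the design was how transcripts of CD8+ Tregs differ between these ages, and no group was treated.

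NKG2D, the product of Klrk1, is an activating receptor of NK cells and of activated or memory CD8+ T cells that recognises stress-induced relatives of MHC class I. It has no signalling tail of its own and reaches the cell surface with an adaptor, Hcst (DAP10), which recruits PI3 kinase and Grb2, or, for its short mouse isoform, also Tyrobp (DAP12), which carries an ITAM and recruits Syk and Zap70. NKG2A (Klrc1), NKG2C (Klrc2) and NKG2E (Klrc3) instead pair with CD94 (Klrd1) and bind Qa-1, the product of H2-T23. NKG2A carries ITIMs and inhibits, whereas NKG2C and NKG2E depend on Tyrobp and activate. Klre1 pairs with Klri1 to form an inhibitory receptor, or with Klri2 to form an activating one. The amounts of a receptor chain, its partner and its adaptor within the same cells therefore all bear on which complexes can form, and the ratios between them were measured within each library.

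The 8 receptor genes lie within a single cluster on chromosome 6 (GRCm38), in the order Klre1, Klrd1, Klrk1, Klrc3, Klrc2, Klrc1, Klri1 and Klri2. Klre1 (ENSMUSG00000050241, chr6:129577905-129585827) and Klrd1 (ENSMUSG00000030165, chr6:129591782-129598775) are read from the plus strand. The other 6 are read from the minus strand, among them Klrk1 (ENSMUSG00000030149, chr6:129610323-129623864) and Klrc1 (ENSMUSG00000030167, chr6:129666015-129678973). Between Klrk1 and Klrc1 lie Klrc3 (ENSMUSG00000033027, chr6:129639064-129643337) and Klrc2 (ENSMUSG00000052736, chr6:129647496-129660689). Beyond Klrc1 and 3 other genes of the table, Gm7309, Mir680-1 and Gm44135, follow Klri1 (ENSMUSG00000067610, chr6:129697218-129717132) and Klri2 (ENSMUSG00000043932, chr6:129729041-129740484). The adaptors are neighbours on chromosome 7, with Tyrobp on the plus strand (ENSMUSG00000030579, chr7:30413760-30417585) and Hcst on the minus strand (ENSMUSG00000064109, chr7:30417712-30419854). Their 3' ends face each other across 126 bases. No gene of the table overlaps any of the 10.

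The 4 NKG2 genes are read one after the other from the same strand, so the 300 bases around their start sites are shown here, from upstream of the start to the first transcribed bases. Promoter sequences are from RefSeq (GRCm38.p6), where 7 of the 10 genes had one: Klre1, Klrk1, Klrc3, Klrc2, Klrc1, Klri1 and Hcst. Capitals mark TGTGGT, a core of the RUNX motif, or its reverse complement ACCACA. Each line reads 5' to 3' on the minus strand of chromosome 6, over chr6:129623815-129624114 for Klrk1, chr6:129678924-129679223 for Klrc1, chr6:129660547-129660846 for Klrc2 and chr6:129643239-129643538 for Klrc3.
Klrk1: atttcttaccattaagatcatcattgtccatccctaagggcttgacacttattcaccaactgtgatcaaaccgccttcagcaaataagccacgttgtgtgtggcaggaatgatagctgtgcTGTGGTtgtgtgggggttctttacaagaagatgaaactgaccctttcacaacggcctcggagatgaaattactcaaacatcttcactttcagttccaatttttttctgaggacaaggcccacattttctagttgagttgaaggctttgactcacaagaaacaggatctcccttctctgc
Klrc1: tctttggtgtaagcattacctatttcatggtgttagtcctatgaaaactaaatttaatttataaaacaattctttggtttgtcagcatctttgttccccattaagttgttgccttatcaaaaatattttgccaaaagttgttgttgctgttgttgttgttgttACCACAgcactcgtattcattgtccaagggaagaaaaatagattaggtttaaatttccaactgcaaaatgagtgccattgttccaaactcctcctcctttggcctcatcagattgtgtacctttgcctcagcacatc
Klrc2: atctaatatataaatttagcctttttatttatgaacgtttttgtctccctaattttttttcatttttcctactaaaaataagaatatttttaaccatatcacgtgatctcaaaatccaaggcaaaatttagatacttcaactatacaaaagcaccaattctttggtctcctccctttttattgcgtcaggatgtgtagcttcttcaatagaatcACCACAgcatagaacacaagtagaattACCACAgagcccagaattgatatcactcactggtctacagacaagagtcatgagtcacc
Klrc3: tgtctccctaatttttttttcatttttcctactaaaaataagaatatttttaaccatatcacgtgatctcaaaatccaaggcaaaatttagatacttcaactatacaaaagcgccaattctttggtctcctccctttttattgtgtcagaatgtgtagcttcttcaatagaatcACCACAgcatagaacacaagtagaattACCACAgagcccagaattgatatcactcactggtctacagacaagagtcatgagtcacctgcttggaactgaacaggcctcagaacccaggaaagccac

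TGTGGT was found, on either strand, in the window of Klrk1, Klrc1, Klrc2, Klrc3 and Klre1, 5 of the 7, and in 16.9% of 27025 promoters of the same length. Klrk1 has it on the strand of the gene, its first base 129 bases before the start site, and Klrc1 on the other strand at 87 bases before it. Klrc2 and Klrc3 hold 2 copies each on the other strand, at 36 and 9 bases before the start of Klrc2 and at 76 and 49 bases before that of Klrc3. These are distances from the RefSeq starts, which for Klrk1 and Klrc1 are those of the count table. For Klrc2, Klrc3 and Klre1 the RefSeq starts lie 93, 49 and 308 bases downstream of those in the count table. Both copies of Klrc2, the nearer copy of Klrc3 and the whole window of Klre1 therefore fall inside the genes as the count table has them. Shifted by 40 bases, the windows of Klrc2 and Klrc3 are identical at 249 of 260 positions (95.8%). No other pair among the 7 windows exceeded 35.5% in any ungapped alignment. AGGTGT (a T-box core, in 13.9% of all promoters) was found in none of the 7. The letters AGATAA, to which GATA factors bind, are in 11.4% and also in none of the 7. GGAAGT (an ETS core, in 24.1%) was found only in the Hcst window, with 2 copies. Each motif was searched on both strands, and the letters of the RUNX and T-box cores can overlap by 3 bases. These are matches of letters and were not tested as binding sites.

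Of the markers used for the sort and the lineage, Cd8a stood at 845 CPM (counts scaled to library size, with TMM factors) on average in young against 810 CPM in middle-aged libraries, and no library was without Cd3e or Il2rb. Total counts ranged from 6135736 to 24394532. Both young libraries with replicate number 1 had under 10000000 counts, and libraries with the same number also shared a slope of counts on gene length, which ran from -0.34 to -0.16 log2 units per doubling of length in number 1, from 0.01 to 0.08 in number 2 and from 0.24 to 0.28 in number 3. Differences within each replicate number are therefore given beside the main results, without a term for sex. In number 3 the only middle-aged library is female 3, set against the mean of young male 3 and young female 3. Middle-aged female 2 stood apart by its myeloid transcripts: the 10 myeloid markers, led by Lyz2 at 1058 CPM there, summed to 2751 CPM, against 162 to 344 CPM in the other middle-aged and 44.5 to 229 CPM in the young libraries. In sorted bulk RNA, fewer cells of a kind and less RNA per cell cannot be told apart.

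NKG2D transcripts were higher in middle-aged CD8+ Tregs in every library. Klrk1 stood at 68.7 CPM in the lowest young library, 152 CPM at the median and 199 CPM in the highest. In middle-aged libraries it stood at 638 and 411 CPM in males 1 and 2, and at 890, 308 and 375 CPM in females 1, 2 and 3. The groups did not overlap, which was so, with the middle-aged libraries higher, of 1.01% of all genes tested. The means were 144 ± 44 CPM (SD, n = 6) and 524 ± 239 CPM (SD, n = 5), a ratio of 3.64. The log2 fold change was 1.85 ± 0.34 (SE) with an unadjusted p of 0.000144 in edgeR's quasi-likelihood test, whose adjusted p over all genes was 0.168. The exact permutation test on mean log2 CPM, two-sided as all such tests here, gave p = 0.00216, the smallest it allows. Within replicate numbers 1, 2 and 3 the difference in log2 CPM was 3.01, 1.19 and 1.08. The wider gap in number 1 came with the lowest 2 young values, 68.7 CPM in young male 1 and 127 CPM in young female 1. It also came with the highest 2 middle-aged values, 638 CPM in male 1 and 890 CPM in female 1. Without both young libraries numbered 1, the young mean was 167 CPM.

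Hcst, the adaptor that NKG2D uses in every isoform, showed no such separation. It stood at 268, 350 and 759 CPM in the lowest, median and highest young library. Middle-aged males 1 and 2 had 824 and 368 CPM, and females 1, 2 and 3 had 578, 230 and 249 CPM. The groups overlapped, and values in both were highest in libraries with replicate number 1. Its log2 fold change was 0.17 ± 0.40 (SE; exact permutation p = 0.814). It was 0.87 in males fitted alone and -0.41 in females fitted alone, and it turned to -0.21 without middle-aged male 1. The term for a different age effect in females and males was -1.30 in log2 (unadjusted p = 0.108 in edgeR).

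The number of Klrk1 counts per Hcst count rose with age. It was 0.167, 0.453 and 0.744 in the lowest, median and highest young library, and 0.774, 1.12, 1.54, 1.34 and 1.51 in middle-aged males 1 and 2 and females 1, 2 and 3. Every middle-aged library was above every young one, as was the ratio to Hcst of 0.358% of all other genes tested. The highest young and lowest middle-aged value were close. The log2 ratio differed by 1.72 between the ages (young -1.44 ± 0.92, n = 6; middle-aged 0.29 ± 0.41, SD, n = 5), a 3.30-fold change, with an exact permutation p of 0.00433 and 0.0121 after Benjamini-Hochberg adjustment over 14 ratios. Within replicate numbers the difference was 2.68, 1.45 and 1.19, and it was 1.30 in males and 2.02 in females. Without middle-aged male 2, female 1 or female 3, the adjusted permutation p was 0.05.

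Counts do not allow for transcript length, and the length given for Klrk1, 7183 bases, joins several transcripts of which the longest coding one has 3197. Per base of the length given, the median ratio of Klrk1 to Hcst was 0.0456 in young against 0.134 in middle-aged libraries. Hcst thus exceeded Klrk1 per length in both groups, also on the scale of the longest coding transcripts, where Klrk1 averaged 45 CPM per kb in young libraries and Hcst 902 CPM per kb, and in middle-aged libraries Klrk1 averaged 164 CPM per kb and Hcst 1017 CPM per kb.

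**Figure D1:**
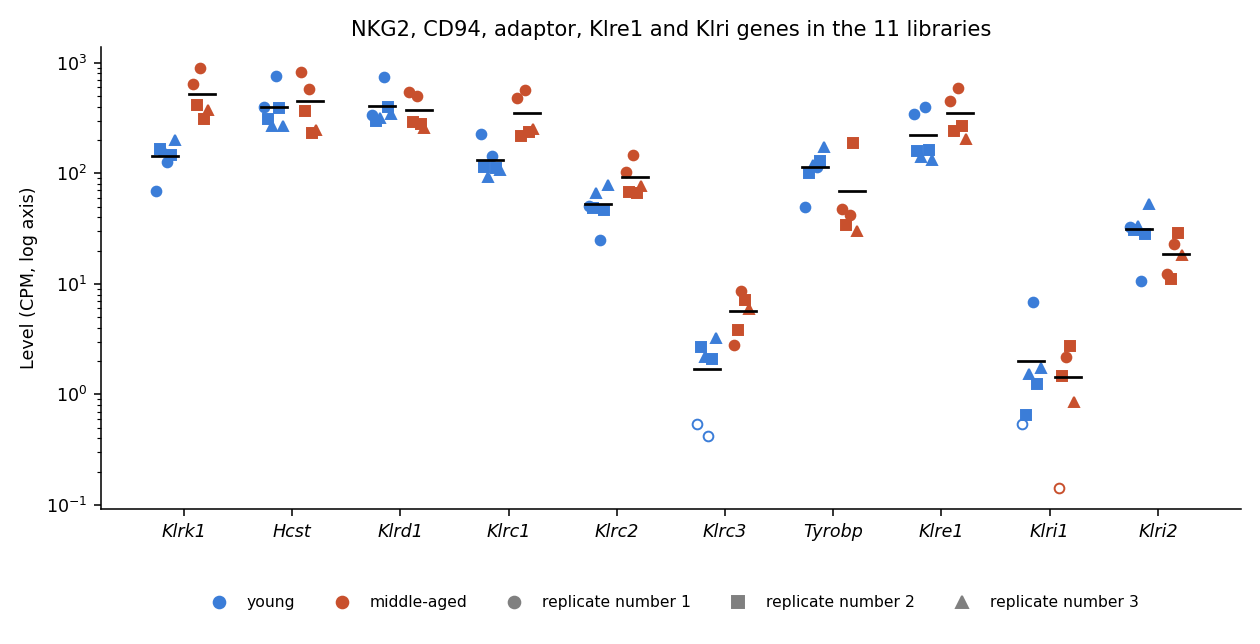
Level of the 10 genes (x axis) in CPM (y axis, log scale) in 6 young and 5 middle-aged libraries, one point per library, with shape for the replicate number and a black line at the group mean. Open points are libraries with 0 counts, drawn at the limit of 3 counts. For Klrk1 the lowest middle-aged library (308 CPM) is above the highest young one (199 CPM).

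Tyrobp, the ITAM adaptor, tended the other way in all but 1 library. It stood at 49.6, 117 and 173 CPM in the lowest, median and highest young library. Middle-aged males 1 and 2 had 47.9 and 34.2 CPM, and females 1, 2 and 3 had 41.8, 188 and 30.1 CPM. Thus 4 of the 5 middle-aged libraries were below all young ones, and middle-aged female 2 was above them all. With all libraries the log2 fold change was -0.88 ± 0.45 (SE) in edgeR, with an unadjusted p of 0.0778, and the exact permutation test gave p = 0.0801. Without middle-aged female 2 the middle-aged mean was 38.5 ± 7.93 CPM (SD, n = 4) against 114 ± 40 CPM (SD, n = 6) in young, the log2 fold change was -1.53, the exact permutation p was 0.00952 and edgeR's adjusted p was 0.249. Within replicate numbers 1, 2 and 3 the difference was -0.75, -0.51 and -2.25, the last with middle-aged female 3 alone on the middle-aged side.

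Tyrobp is also made by NK cells and myeloid cells, so their markers are given beside it. Middle-aged female 2 had the highest Tyrobp and the highest myeloid sum. With all libraries, 3 of the 10 myeloid markers were higher in middle-aged libraries at an unadjusted p under 0.05 in edgeR, and 0 were lower. The 3 were Lyz2, S100a8 and S100a9, and the median log2 fold change of the 10 was 1.07. Over all genes, 2.0% were higher and 0.99% lower at that level. The 10 NK cell markers summed to 104, 224 and 362 CPM in the lowest, median and highest young library, and to 65.2, 71.9, 132, 239 and 114 CPM in middle-aged males 1 and 2 and females 1, 2 and 3. Of the 9 tested, 4 were lower in middle-aged libraries at an unadjusted p under 0.05 in edgeR, against 0.99% of all genes. None was higher, against 2.0%. The 4 were Ncr1, Klrb1a, Klrb1b and Klrb1c. The paper reports Klrb1a and Klrb1b as lower in middle-aged CD8+ Tregs from these same libraries, so this count is not independent evidence. Ncr1, the defining receptor NKp46, had a log2 fold change of -2.33 ± 0.69 (SE; edgeR's adjusted p = 0.660). Sh2d1b2 was untested and near the floor in both groups, with a mean of 0.032 CPM in young and 0 in middle-aged libraries (highest count 4). The NK sum and Tyrobp were both lowest among young libraries in young male 1. The share of Tyrobp that came from such cells was not tested.

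**Figure D2:**
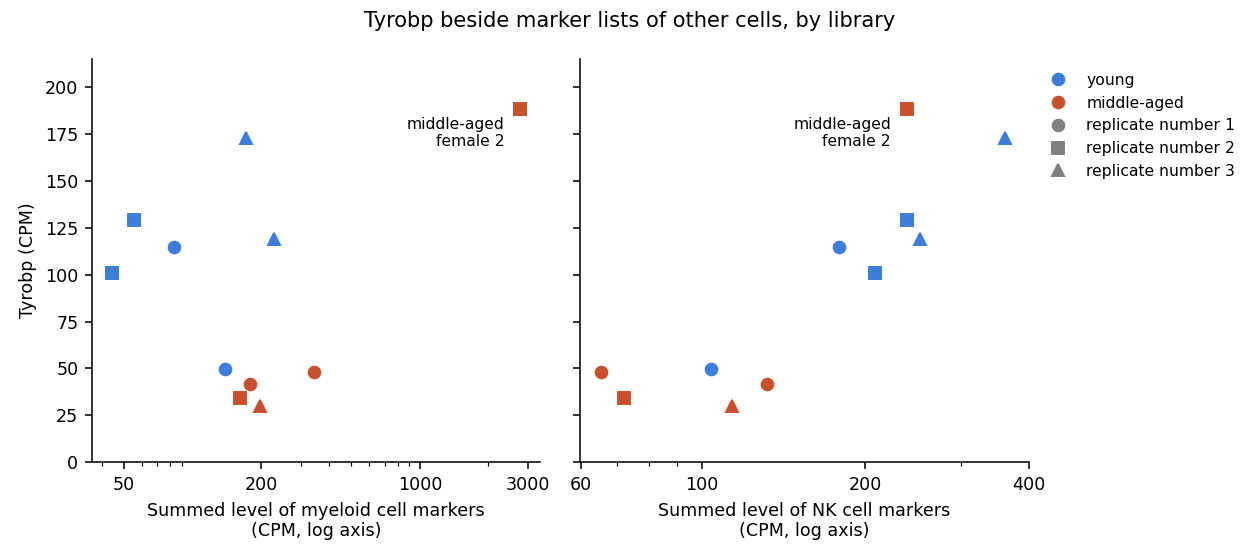
Tyrobp in CPM (y axis) against the summed CPM of 10 myeloid markers (left) and 10 NK cell markers (right), both on log axes, one point per library. Middle-aged female 2 is at 188 CPM of Tyrobp with 2751 CPM of myeloid markers, and the other 4 middle-aged libraries are between 30.1 and 47.9 CPM.

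Klrk1 rose relative to Tyrobp as well. Its counts per Tyrobp count were within a narrow range in young libraries, with 1.10, 1.24 and 1.64 as lowest, median and highest. Middle-aged males 1 and 2 had 13.3 and 12.0 and females 1, 2 and 3 had 21.3, 1.63 and 12.4. Middle-aged female 2 was within the young range, and the lowest of the other 4 was far above the highest young library. The log2 ratio differed by 2.86 (exact permutation p = 0.00433, adjusted 0.0121 over 14 ratios), and by 3.49 without middle-aged female 2 (adjusted permutation p = 0.0167). Hcst per Tyrobp, which compares the adaptors with each other, had a median of 3.05 in young against 10.7 in middle-aged libraries. That difference of 1.14 in log2 did not pass (exact permutation p = 0.154, adjusted 0.189), but without middle-aged female 2 it was 1.80 with an adjusted permutation p of 0.0190.

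Transcripts of CD94, the obligate partner of the Klrc chains, had no difference between the ages that passed a test. Klrd1 stood at 300, 342 and 746 CPM in the lowest, median and highest young library, and at 540, 289, 502, 281 and 258 CPM in middle-aged males 1 and 2 and females 1, 2 and 3. The groups overlapped, and 3 middle-aged libraries were below all young ones. The log2 fold change was -0.11 ± 0.31 (SE) with an exact permutation p of 0.725, and its sign was positive in males alone (0.38), without young female 1 (0.15), without middle-aged female 2 (0.01) and without middle-aged female 3 (0.03).

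Transcripts of NKG2A, the inhibitory chain, were higher in middle-aged libraries by about the same step in each replicate number. Klrc1 stood at 92.2, 114 and 226 CPM in the lowest, median and highest young library. Middle-aged males 1 and 2 had 482 and 219 CPM, and females 1, 2 and 3 had 571, 235 and 251 CPM. Only middle-aged male 2 was below the highest young library, young male 1, and the other 4 were above all young ones. The means were 133 ± 48.6 CPM (SD, n = 6) and 352 ± 163 CPM (SD, n = 5). This was a log2 fold change of 1.43 ± 0.34 (SE; unadjusted p = 0.00122 and adjusted p = 0.344 in edgeR; exact permutation p = 0.00649), and within replicate numbers 1, 2 and 3 the difference was 1.55, 0.99 and 1.33.

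Transcripts of NKG2A relative to those of CD94 rose with age. Klrc1 counts per Klrd1 count were 0.190, 0.301 and 0.669 in the lowest, median and highest young library, and 0.893, 0.755, 1.14, 0.838 and 0.972 in middle-aged males 1 and 2 and females 1, 2 and 3. The groups did not overlap, and young male 1 was the young library closest to them. Ratios to Klrd1 that put every middle-aged library above every young one were found for 0.708% of all other genes. The log2 ratio differed by 1.47, a 2.77-fold change (young -1.61 ± 0.60, n = 6; middle-aged -0.14 ± 0.22, SD, n = 5; exact permutation p = 0.00433, adjusted 0.0121). The difference was 0.97 in males and 1.92 in females, and 1.498, 1.26 and 1.69 within replicate numbers 1, 2 and 3. Per length, the median ratio was 0.194 in young against 0.577 in middle-aged libraries, so Klrd1 transcripts exceeded those of Klrc1 in both. Protein was not measured.

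Klrk1 was compared with Klrd1 in the same way, although NKG2D does not pair with CD94. Klrk1 per Klrd1 was 0.170, 0.434 and 0.578 in the lowest, median and highest young library and 1.18, 1.42, 1.77, 1.10 and 1.45 in the 5 middle-aged ones, in the same order as above. It thus rose too, by 1.94 in log2 (exact permutation p = 0.00216, adjusted 0.0121), with 2.96, 1.46 and 1.44 within replicate numbers.

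NKG2C transcripts were higher on average in middle-aged libraries. Klrc2 stood at 24.7, 49.6 and 78.6 CPM in the lowest, median and highest young library, and at 102, 67.6, 146, 66.2 and 76.8 CPM in middle-aged males 1 and 2 and females 1, 2 and 3. Only the 2 middle-aged libraries with replicate number 1 were above all young ones. In edgeR the log2 fold change was 0.80 ± 0.32 (SE), with an unadjusted p of 0.029 and an adjusted p of 1.00, and an exact permutation p of 0.0281. Within replicate numbers 1, 2 and 3 the difference was 1.79, 0.48 and 0.08. Klrc2 per Klrd1 had a median of 0.156 in young against 0.236 in middle-aged libraries. The log2 ratio differed by 0.93 (exact permutation p = 0.0325, adjusted 0.0568), by 1.74, 0.75 and 0.45 within replicate numbers 1, 2 and 3, and by 0.54 without young female 1, whose ratio of 0.0332 was the lowest.

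NKG2E had the least abundant transcripts of the NKG2 chains. Klrc3 had 0 counts in young male 1 and young female 1, which allows up to 0.543 and 0.417 CPM. The other 4 young libraries had 2.11 to 3.23 CPM, and the 5 middle-aged ones, in the same order as above, had 2.80, 3.84, 8.63, 7.15 and 5.88 CPM. Thus 4 of 5 middle-aged libraries were above all young ones. The log2 fold change was 1.55 ± 0.93 (SE; unadjusted p = 0.120 in edgeR; exact permutation p = 0.0260), and within numbers 2 and 3, where no library was at 0, the difference was 1.11 in both. Klrc3 per Tyrobp separated the groups fully (highest young 0.0268, lowest middle-aged 0.0380), as did 1.82% of all other genes, and rose by 3.75 in log2 (exact permutation p = 0.00433, adjusted 0.0121). The size of that difference rests in part on the 0.5 added to each count, and it was 2.34 in the libraries with over 10000000 counts, none of which had a 0. The adjusted permutation p was 0.0533 without middle-aged male 2, female 1 or female 3. Klrc3 per Klrd1 did not pass (2.83; exact permutation p = 0.0476, adjusted 0.0741), and within replicate numbers 1, 2 and 3 the difference was 5.91, 1.403 and 1.497.

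Klrc2 per Tyrobp, an activating CD94 partner over its adaptor, had a median of 0.469 in young against 2.13 in middle-aged libraries. The log2 ratio differed by 1.85 (exact permutation p = 0.0238, adjusted 0.0476). It was within the young range in middle-aged female 2 (0.352) and above it in the other 4. The adjusted permutation p was 0.0167 without middle-aged female 2 and between 0.0606 and 0.105 without any other single library. Klrd1 per Tyrobp differed by 0.92 (exact permutation p = 0.162, adjusted 0.189), and by 1.47 without middle-aged female 2 (adjusted permutation p = 0.0190).

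The balance of the Klrc chains among themselves followed the replicate number in young libraries. Klrc1, Klrc2 and Klrc3 together averaged 187 ± 45.1 CPM (SD, n = 6) in young against 449 ± 196 CPM (SD, n = 5) in middle-aged libraries, a ratio of 2.40. Klrc1 made up 81.8 and 85.2% of that sum in the young libraries numbered 1, 69.1 and 69.7% in those numbered 2, and 57.2 and 56.8% in those numbered 3. In middle-aged libraries it made up 75.2 to 82.1%. The lengths given, 1984 bases for Klrc1 and 5812 for Klrc2, make Klrc2 the longer gene, and the slope on length was lowest in libraries numbered 1 and highest in those numbered 3. Klrc1 per Klrc2 differed by 0.54 in log2 between the ages (exact permutation p = 0.216, adjusted 0.233), and by -0.24, 0.51 and 1.25 within replicate numbers 1, 2 and 3.

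The Klrc genes are near copies of each other in part. Of all stretches of 50 bases in the annotated transcripts of Klrc1 (GENCODE M21), 38.6% also occur in another gene, 36.6% in Klrc2. The share was 16.3% for Klrc2 and 36.3% for Klrc3, of which 31.1% was shared with Klrc2. Reads on these stretches may have been divided among the 3 genes, so their single values are less certain than their sum. Klrk1, Klrd1, Hcst and Tyrobp shared no such stretch with any other gene.

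**Figure D3:**
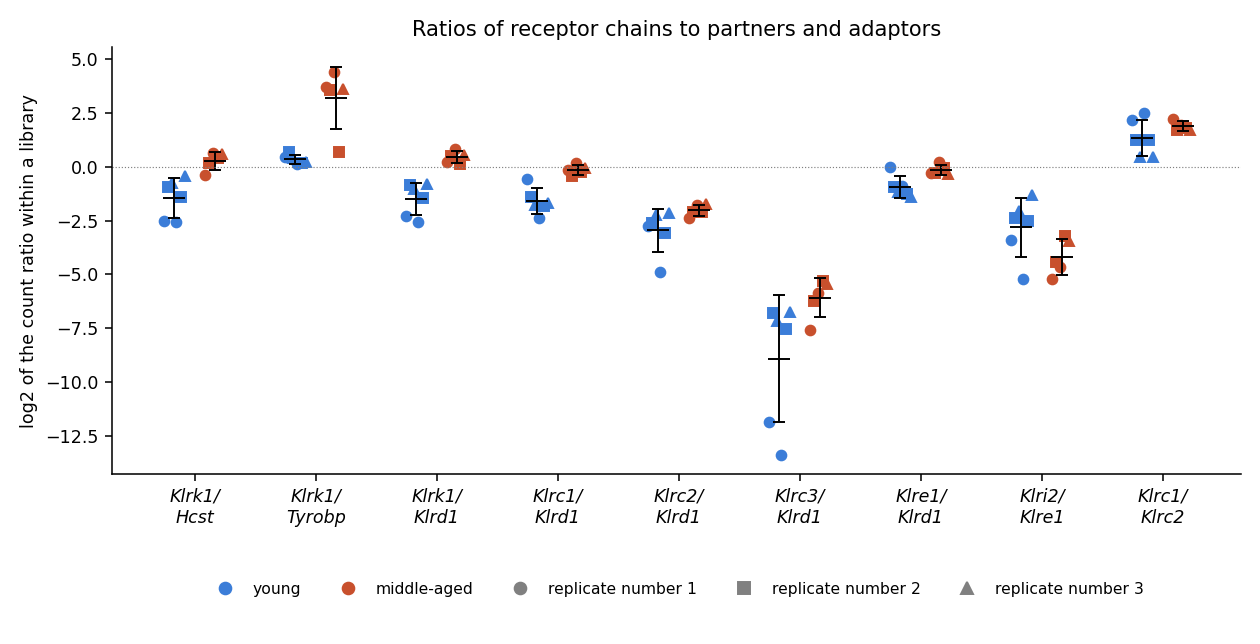
Log2 of the ratio of counts within a library (y axis) for 9 of the 14 ratios, one point per library, with shape for the replicate number and black bars for mean ± SD of 6 young and 5 middle-aged libraries. Klrk1/Hcst, Klrk1/Klrd1 and Klrc1/Klrd1 do not overlap between the ages, while 1 middle-aged library of Klrk1/Tyrobp lies among the young ones.

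Klre1 and its partners were the last group. Klre1 stood at 132, 161 and 397 CPM in the lowest, median and highest young library and at 450, 240, 590, 268 and 203 CPM in middle-aged males 1 and 2 and females 1, 2 and 3. The groups overlapped, and in both the highest values belonged to replicate number 1. Its log2 fold change was 0.65 ± 0.40 (SE; exact permutation p = 0.123), with 0.49, 0.66 and 0.57 within replicate numbers. Klre1 was also compared with Klrd1, although the partners named for it above are Klri1 and Klri2. Klre1 per Klrd1 had a median of 0.487 in young against 0.834 in middle-aged libraries and rose by 0.80 in log2 (exact permutation p = 0.0173, adjusted 0.0404). That call was lost without any single library other than young male 1, with adjusted permutation p of 0.0519 to 0.10.

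Klri2, the activating partner, was lower on average in middle-aged libraries, with 12.2, 11.04, 23.1, 28.6 and 18.4 CPM against 10.6, 31.5 and 52.9 CPM in the lowest, median and highest young library. All middle-aged values lay within the young range. The log2 fold change was -0.86 ± 0.40 (SE; unadjusted p = 0.0533 in edgeR; exact permutation p = 0.123), and Klri2 per Klre1 differed by -1.39 in log2 (exact permutation p = 0.0693, adjusted 0.0970). Without young female 1, the young library with the least Klri2, that ratio differed by -1.87 (adjusted permutation p = 0.0370).

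Klri1, the inhibitory partner, was near the floor in both groups. It had 0 counts in young male 1 and middle-aged male 1, which allows up to 0.543 and 0.143 CPM, and at most 2.72 CPM in any other library but young female 1, with 6.81 CPM. Its log2 fold change of -0.45 ± 1.02 (SE) and the difference of -1.25 in Klri1 per Klre1 did not pass (exact permutation p = 0.879 and 0.465), and both turned positive when 1 library was left out, to 0.15 without young female 1 and to 0.10 without middle-aged male 1.

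**Figure D4:**
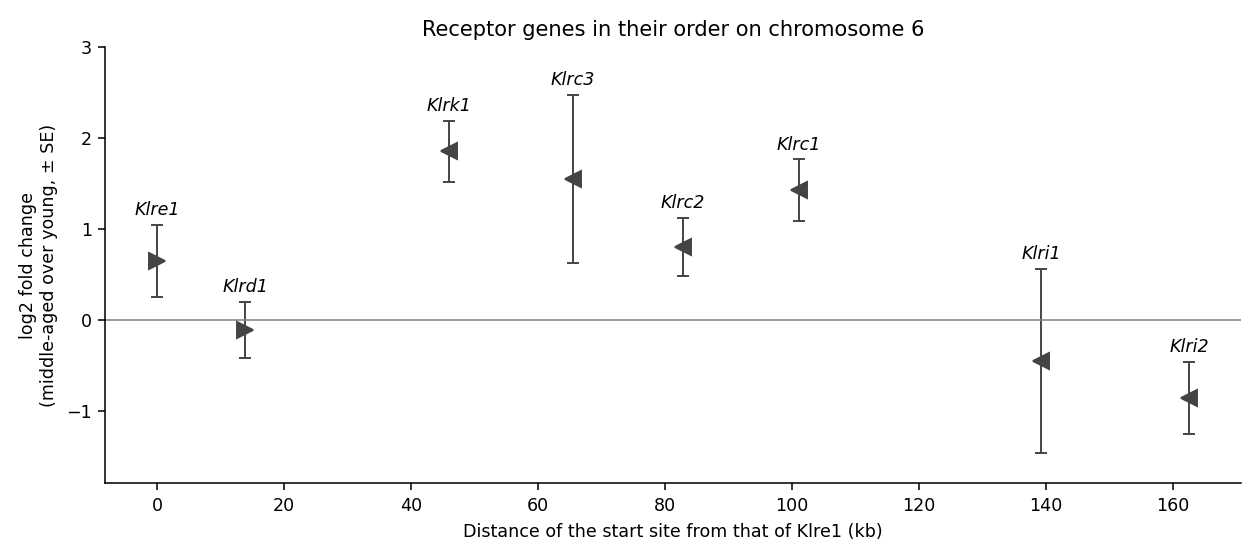
Log2 fold change of middle-aged over young libraries (y axis, ± SE from edgeR) for the 8 receptor genes against the distance of their start site from that of Klre1 in kb (x axis), with the arrowhead giving the strand. The 4 NKG2 genes in the middle have the largest positive values, 0.80 to 1.85, and Klri1 and Klri2 at the far end are negative.

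Of the 10 genes, none had an adjusted p under 0.05 in edgeR, where 0.0229% of all genes tested did. At an unadjusted p under 0.05, Klrk1, Klrc1 and Klrc2 were higher in middle-aged libraries, 3 of 10 against 2.0% of all genes, and none was lower, against 0.99%. No gene had every middle-aged library below every young one, against 0.297% of all genes. These genes are not independent evidence, since the study had chosen Klrk1, Klrc1, Klrc2 and Klrc3 on these libraries. The adjusted calls depended on the tool. DESeq2 called Klrk1 (adjusted p = 0.00011) and Klrc1 (0.0141), where it called 0.86% of all genes. Limma voom with sample quality weights called both (0.00919 and 0.0143) and also Klri2 (0.0338) and Tyrobp (0.0463) as lower, where it called 1.05% of all genes. Among the 14 ratios, 9 had an exact permutation p under 0.05, 7 passed the adjustment over the 14 and 4 did not overlap between the ages. Over all other genes, 0.708% of ratios to Klrd1, 0.358% to Hcst and 1.82% to Tyrobp had every middle-aged library above every young one. No such share was computed for the permutation p. The 14 ratios reuse the same genes, among them those the study had chosen, so these counts are not independent evidence either. None of the 10 passed the test of sex, or that of a different age effect in males and females, in edgeR, also at an unadjusted p under 0.05.

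**Figure D5:**
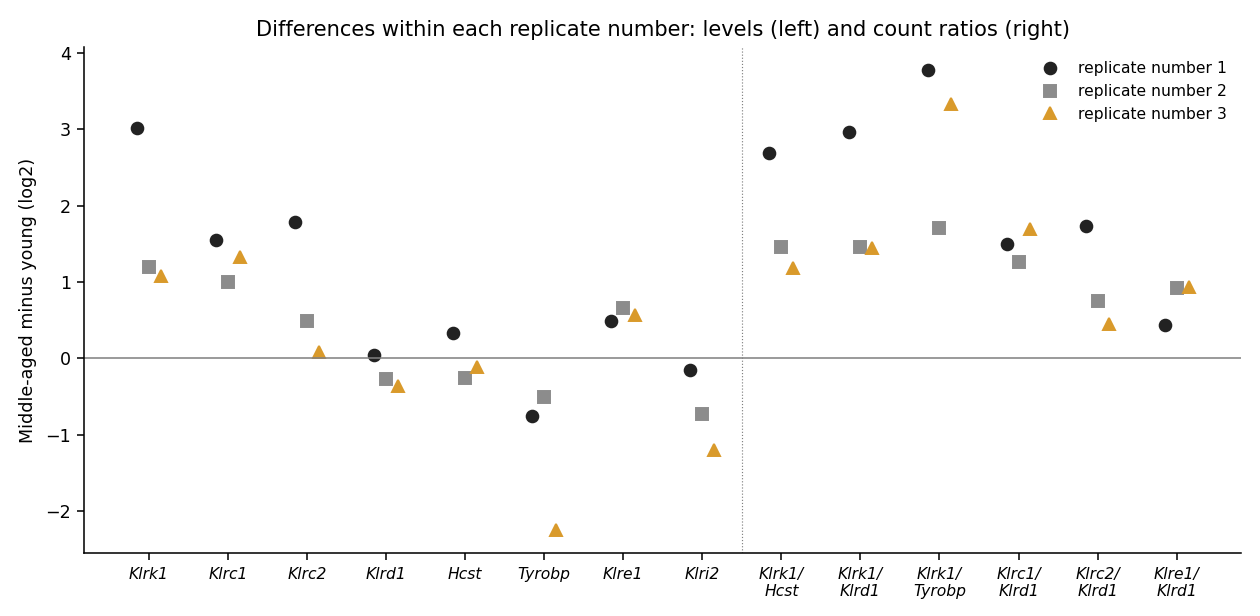
Difference between the mean of the middle-aged and the mean of the young libraries within each replicate number (y axis, log2), for the levels of 8 genes (left) and 6 count ratios (right), one point per number. Klrk1, Klrc1 and all 6 ratios are above 0 in each number, and Klrc2 is at 1.79, 0.48 and 0.08 in numbers 1, 2 and 3. In number 3 the middle-aged side is female 3 alone, against young male 3 and young female 3.

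Per kb of the length given, the order of levels in young libraries was Hcst (552 CPM per kb on average), Klrd1 (318), Tyrobp (171), Klrc1 (66.8), Klre1 (63.5), Klrk1 (20.1), Klrc2 (9.07), Klri2 (8.03), Klri1 (2.38) and Klrc3 (2.31). Neighbours in this order overlapped in their ranges except Klre1 and Klrk1. In middle-aged libraries Hcst (623), Klrd1 (292), Klrc1 (177), Tyrobp (103), Klre1 (100.2), Klrk1 (73.0), Klrc2 (15.8), Klrc3 (7.69), Klri2 (4.77) and Klri1 (1.72) followed each other. There only Klrk1 and Klrc2 did not overlap. Klrc1 was above Tyrobp in 4 of the 5 middle-aged libraries and below it in 5 of the 6 young ones. These orders are by mean, and single libraries departed from them. Tyrobp had 282 CPM per kb in middle-aged female 2 and 45.1 to 71.8 in the other middle-aged libraries. It was above Klre1 in only 1 of the 5, and the median ratio of Klrk1 to Tyrobp per length was 1.16 there. In young libraries Klri1 was above Klrc3 in only 1 of the 6.

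Genes of the receptors' surroundings were counted from lists. Of 8 NKG2D ligands 5 were in the table and 1 was tested, Ulbp1, with 2.56 ± 1.46 CPM (SD, n = 6) in young against 5.94 ± 2.36 CPM (SD, n = 5) in middle-aged libraries (log2 fold change 1.22; unadjusted p = 0.0497 and adjusted p = 1.00 in edgeR). H2-T23, which encodes the ligand of CD94 with NKG2, stood at 563 ± 74.9 CPM in young against 529 ± 81.4 CPM in middle-aged libraries (log2 fold change -0.08). None of 5 other ITAM adaptors, of 25 kinases, lipid enzymes and scaffolds that act below Hcst and Tyrobp, or of 4 ITIM phosphatases and adaptors had an unadjusted p under 0.05 in edgeR. Their median log2 fold changes were -0.16, -0.02 and 0.01. At an unadjusted p under 0.05 in edgeR, 2.0% of all genes tested were higher and 0.99% lower. Finding none in lists this short therefore does not set them apart from other genes. Of 13 transcription factors and cytokine receptors tied to NKG2 expression, 2 were higher at that level and none was lower. The median of the 13 was 0.45, against a median of 0.00 over all genes tested. The 2 were Id2, an inhibitor of E proteins, and Il15ra, the chain that presents IL-15. Id2 had a log2 fold change of 1.03 ± 0.21 (SE; adjusted p = 0.228 in edgeR) and Il15ra had 0.88 ± 0.26 (SE; adjusted p = 0.643 in edgeR).

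Correlations of log2 CPM across the 11 libraries are given as a description, since the libraries share an age difference, a replicate number effect and unequal depth. Klrd1 and Hcst moved together (Pearson's r = 0.91), as did Klrk1 and Klrc2 (0.79) and Klrc1 and Klre1 (0.84), whereas Klrk1 and Klrd1 did not (0.08). Among 8331 genes with a mean of at least 10 CPM, the 5 most like Klrk1 were Fcgr2b (0.91), Mospd1 (0.89), Hdgfl3 (0.89), Blzf1 (0.89) and Uxs1 (0.88). Those most like Klrc1 were Pkig (0.95), the Ly49 gene Klra3 (0.94), Susd3 (0.92), AU020206 (0.92) and Pim2 (0.91). Those most like Tyrobp were Gypc (0.88), Gzma (0.88), Strbp (0.86), Gm6637 (0.82) and Cd244a (0.80), of which granzyme A and the SLAM receptor encoded by Cd244a are also NK cell products.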

How the data were processed

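CD8+ Tregs were sorted, and libraries were made from their RNA with a low-input SMARTer kit. The authors deposited counts, whole numbers of reads per gene on GRCm38 coordinates, without normalization; the submitters' processing notes name kallisto and mm10, and how the counts were made and whether strand was used is not given in the sources used here. No column was left unused. Groups were taken from the sample labels. Genes were kept by filterByExpr on age (minimum count 10, minimum total 15) and fitted in edgeR 4.0.16 (R 4.3.3; TMM factors, robust glmQLFit, glmQLFTest on age with sex in the model, Benjamini-Hochberg over 13129 genes). DESeq2 1.42.0 and limma 3.58.1 were alternatives, with other scalings and filters, a replicate block, each sex alone and each library left out. Log2 CPM used a prior count of 2. Ratios were log2 of (count + 0.5) over (count + 0.5) within a library, and single values were compared by exact permutation tests over 462 splits, whose smallest p is 0.00216. A count of 0 was taken to allow 3 counts, which covers counting error only. Libraries with the same replicate number correlated over 0.1 in 13 of 15 pairs, but pairing was to be taken from the number only where every pair did, so differences within each number are given and the block is an alternative. The steps were tested on simulated data.

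All 10 genes are named. From the lists of pathway genes, genes with an adjusted p under 0.05 are named, or otherwise up to 2 in a direction by unadjusted p; the defining markers of other cells and the 5 genes most like Klrk1, Klrc1 and Tyrobp are also named. Genes, ratios and lists were chosen with earlier results of these data known. Using libraries with over 10000000 counts in the fits, and a term for the length slope, were added after seeing the data. Of the other marker lists, summed CPM ranged in young and middle-aged libraries from 130 to 387 and 196 to 753 for B and plasma cells (Cd79a), 92 to 199 and 111 to 276 for gamma delta T cells (Trdc), 1.39 to 23.6 and 3.60 to 25.7 for CD4 T cells (Cd4), 0.362 to 8.93 and 3.65 to 35.5 for dendritic cells, and 27.8 to 155 and 1.05 to 31.5 for erythroid cells and platelets.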

Additional observations from a re-analysis of the deposited data

Results flagged for a closer look

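In 6 of 48 sets of 5 or 6 values, 1 library lay apart from the rest of its age group by the gap between it and the nearest other; chance does this in about 1 in 20 groups, and the cause was not tested. Klrc1 was highest of the young libraries in young male 1, at 226 CPM against 92.2 to 142 CPM. Klre1 per Klrd1 was highest in the same library, at 1.01 against 0.383 to 0.532. Young female 1 stood apart among young libraries in Klrd1 (746 CPM against 300 to 394 CPM), in Hcst (759 CPM against 268 to 396 CPM) and in Klri1 (6.81 CPM against 0 to 1.73 CPM). Both libraries have replicate number 1 and the fewest counts of the series. Tyrobp in middle-aged female 2 was 188 CPM against 30.1 to 47.9 CPM in the other middle-aged libraries, and this is the library with the high myeloid sum.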

How the results depend on the processing

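The number of genes with an adjusted p under 0.05 was 3 in edgeR. It was 17 with at least 1 count in any library, 5 with at least 10 counts in every library, 112 in DESeq2, 138 in limma voom, 5 without a sex term, 37 with the length slope as a term, 6 in libraries with over 10000000 counts, 0 in males or in females alone (202 and 277 at an unadjusted p under 0.05) and 1 to 4 with a library left out. Of the 10 genes, 0 were called in edgeR and with any library left out, 2 with at least 1 count in any library, 2 in DESeq2, 4 in limma voom and 1 with the length slope (Klrc1, adjusted p = 0.021).

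A replicate block shared by both sexes gave 19 genes, 1 of the 10 among them (Klrc1, adjusted p = 0.0214), and a replicate block within sex gave 2 genes and none of the 10. Same-numbered libraries had a median correlation of deviations from their group means of 0.353 (lowest 0.0250), and those with different numbers -0.186. Deviations within a group sum to 0, so negative values between numbers follow from positive ones within numbers and add nothing to them. The number is thus only a hint from the data. With the block, Klrc2/Klrd1 differed by 0.98 (adjusted permutation p = 0.0216), Klrc3/Klrd1 by 2.94 (0.0216) and Hcst by -0.0093.

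Klrk1 and Klrc1 kept their direction under all 25 alternatives (1.36 to 2.00 and 1.15 to 1.70 in log2), as did Klrk1/Klrd1 and Klrc1/Klrd1 their direction and call under 17 (1.47 to 2.08 and 1.31 to 1.67; adjusted permutation p at most 0.0444). Klrk1/Hcst was 1.17 in libraries with over 10000000 counts and 1.49 to 1.93 with a library left out. Klrc2/Klrd1 passed when permuted within sex (0.89) and after the length slope was removed (0.91), but was 0.50 in libraries with over 10000000 counts (adjusted permutation p = 0.1) and 0.54 to 1.10 with a library left out. Klrc3/Klrd1 was 0.97 in the deep libraries. The sign turned for Hcst in females (-0.41, against 0.87 in males) and with libraries left out (-0.21 to 0.49). It turned for Klrd1 in males (0.38), in deep libraries (0.13) and with libraries left out (-0.38 to 0.15). It also turned for Klri1 (-1.53 to 0.15) and for Klri1/Klre1 (-2.12 to 0.10). These causes were not tested.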
